A study of Mus musculus with 6 samples.

Results

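The genes described here are grouped as smooth muscle actin cytoskeleton, although Vim codes for an intermediate filament and Thbs1 for a secreted protein. They are Tagln, Acta2, Cnn1, Cnn2, Myl9, Tpm1, Tpm2, Vim, Flna and Thbs1, 10 of the 39017 genes whose reads were counted. They were chosen by their read counts in these same untreated, auxin-treated and wild-type libraries, which were already known, so that every value given for them below is a description, with no test. PolyA RNA-Seq was carried out on mouse embryonic stem cells (mESCs) of the V6.5 line, 6 libraries in all. In the Pol II degron cells the endogenous RPB1, the largest subunit of RNA polymerase II and the product of Polr2a, carried an mAID-GFP tag at both alleles, and the cells were a single clone picked for its degradation. From a cassette at the Rosa26 locus these cells expressed OsTIR1, the plant auxin receptor that sends mAID-tagged proteins to the proteasome once auxin is added, after 12 h of doxycycline at 1 μg/ml. From there, 2 libraries were made without auxin (untreated) and 2 after 6 h of auxin at 500 μM. The remaining 2 libraries came from wild-type V6.5 cells without the tag, whose records do not say whether they received doxycycline and name retinas in the RNA extraction. The cells of all 3 groups were grown with irradiated mouse embryonic fibroblasts as feeders. The methods place the harvest after 2 passages of these feeders, and whether any feeder cells remained is not stated. The study's methods call the replicates of its high-throughput experiments biological, but neither they nor the labels say how the cultures were separated, so p-values measure only the spread between these libraries.

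Actin filaments, built from actin monomers, are pulled by myosin II, whose regulatory light chains include Myl9. Tropomyosins run along the filament and calponins bind it, and both set how myosin meets actin, whereas filamins link filaments into networks and to the membrane. Many of these genes are known targets of serum response factor (SRF), which binds the CArG box in their promoters, an A/T-rich core flanked by CC and GG. Its partners of the MRTF family leave the cytoplasm when monomeric actin becomes scarce, and TGF-beta raises several of the genes in fibroblasts and smooth muscle.

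In mm10 with the GENCODE vM21 annotation, Tagln lies on the minus strand of chromosome 9 (45929619 to 45936058), as does Tpm1 (67022590 to 67049406), and Cnn1 lies on the plus strand of the same chromosome (22099216 to 22109630). Vim (13573927 to 13582826), Thbs1 (118111876 to 118127133) and Myl9 (156775420 to 156781658) are on the plus strand of chromosome 2. Cnn2 is on the plus strand of chromosome 10 (79988584 to 79996062). On the minus strand lie Acta2 on chromosome 19 (34241090 to 34255590), Tpm2 on chromosome 4 (43514711 to 43523765) and Flna on chromosome X (74223461 to 74249820). Each of the 10 is annotated as protein-coding, and the counts are over exons. Tagln is the uncertain one, since 48.3% of the 100-base stretches of its transcripts also occur in transcripts of Pcsk7 or Gm48529 on the opposite strand, and how the counting treated strand is not given in the sources used here. Pcsk7 had 213 and 221 counts in the untreated, 260 and 225 in the auxin-treated and 181 and 136 in the wild-type libraries, far fewer than Tagln in every library. Reads that fit both genes may have been left out of both, so these counts do not show how many reads Tagln lost. The level of Tagln is uncertain to that extent. For Thbs1 the share of such stretches was 0.234%, opposite Gm29233, and for the other 8 genes it was 0%. These shares are over vM21 transcripts, and neither Gm48529 nor Gm29233 was found among the genes counted. The part of the Tagln share that belongs to Pcsk7 alone was not computed.

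Promoters of 8 of the 10 genes were found among the RefSeq promoters (GRCm38.p6), the exceptions being Tagln and Thbs1. They are shown because SRF acts on many of these genes through the promoter, and all positions are counted from the RefSeq start site. An exact CArG box stood in the promoters of Cnn2, at −56 to −47, and Myl9, at −161 to −152, on a background of 1.63% of 32851 promoters of the same length. With at most 1 of its 10 letters different, a search added after the exact matches had been seen, the promoters of Acta2, Tpm1 and Flna also held it, 5 of the 8, on a background of 21.1%. The RefSeq start site used for Flna lies inside its vM21 gene span, not at its upstream end. Its bases from −200 to −40 are at 74246574 to 74246734 of chromosome X. Myl9, Tpm1 and Acta2 held at least 2 such matches, as did 3.70% of all promoters. The CArG matches are in capitals in the stretches from −200 to −40 of 4 of these promoters, and the stretch of Cnn1, which holds none, is set beside them because Cnn1 was, with Tagln, among the genes furthest from the untreated level in wild-type cells. They are Myl9 (chr2:156775264-156775424, plus strand), Cnn2 (chr10:79988400-79988560, plus strand), Acta2 (chr19:34255413-34255573, minus strand), Tpm1 (chr9:67049253-67049413, minus strand) and Cnn1 (chr9:22099053-22099213, plus strand), each read along the strand of its gene.
Myl9: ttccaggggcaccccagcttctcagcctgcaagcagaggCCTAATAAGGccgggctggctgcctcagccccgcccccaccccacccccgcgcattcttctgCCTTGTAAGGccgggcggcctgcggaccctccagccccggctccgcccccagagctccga
Cnn2: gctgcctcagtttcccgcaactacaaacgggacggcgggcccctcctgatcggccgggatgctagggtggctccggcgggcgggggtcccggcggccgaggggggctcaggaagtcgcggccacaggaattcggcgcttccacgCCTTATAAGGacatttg
Acta2: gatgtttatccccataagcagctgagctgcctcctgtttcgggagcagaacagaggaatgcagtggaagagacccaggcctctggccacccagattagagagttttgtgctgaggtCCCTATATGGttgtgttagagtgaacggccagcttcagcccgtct
Tpm1: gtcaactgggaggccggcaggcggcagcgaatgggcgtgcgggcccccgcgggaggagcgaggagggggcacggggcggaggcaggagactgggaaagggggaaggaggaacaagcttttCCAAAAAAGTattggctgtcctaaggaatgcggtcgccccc
Cnn1: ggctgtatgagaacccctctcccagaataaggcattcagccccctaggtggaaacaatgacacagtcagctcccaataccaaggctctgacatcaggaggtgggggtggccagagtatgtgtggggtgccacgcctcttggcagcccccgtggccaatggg
In Acta2 the capitals mark CCCTATATGG at −84 to −75, and a further match, CCTTGTTTGG, lies nearer the start site at −34 to −25. In Tpm1 a further match lies at −221 to −212. Searched on both strands, TATAAA was found only in the promoter of Vim, at −32 to −27 (13.6% of all promoters), and CATTCC, the MCAT box, in those of Acta2, Flna and Tpm1 (14.7%). TGANTCA, the AP-1 motif, was in none of the 8 (7.81% of all promoters). No match of one motif overlapped a match of another in these promoters.

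Between 14094022 and 15358714 reads were counted on genes per library, so that counting error weighs most on Cnn1 and Myl9, the genes with the fewest counts. The untreated replicates stood further apart than the others, with a chi-square per degree of freedom of 5.72 over all genes, compared with 2.31 between the auxin-treated and 2.60 between the wild-type replicates. Polr2a had 6623 and 6568 counts in the untreated, 10396 and 10663 in the auxin-treated and 6866 and 7129 in the wild-type libraries. Since auxin removes the protein and not its message, these counts do not report on the depletion. Against the name of smooth muscle, other genes of that tissue were uneven in these libraries. Myh11, the smooth muscle myosin heavy chain, had 2 to 18 counts per library, Myocd, the smooth muscle coactivator of SRF, 5 to 26, Actg2, the gamma-actin of smooth muscle, 2 to 16, and Mylk, the myosin light chain kinase, 16 to 37. Others of the same list had more, with 761 to 1010 counts for Smtn, 657 to 841 for Des, 1426 to 3596 for Csrp1 and 2267 to 6445 for Cald1. Lmod1, an actin nucleator of smooth muscle, lay between, with 62 to 127. Pou5f1, which defines pluripotent cells, had 10625 to 13854 counts. In bulk RNA, fewer cells that express a gene and less of its RNA per cell cannot be told apart.

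All 10 genes were lower in the wild-type libraries than in the untreated degron libraries, with log2 fold changes from −2.44 for Cnn1 to −0.50 for Myl9 and a median of −1.35. After auxin for 6 h they stood close to the untreated level, between 0.04 and 0.23, with a median of 0.15. Levels are given as CPM, counts per 1000000, after TMM scaling over the 6 libraries, and the fold changes come from edgeR fits of each comparison.

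Among the calponin family, Tagln codes for transgelin (SM22), a calponin-related protein that binds actin filaments. Tagln had 7064 and 5968 counts in the untreated libraries, 7595 and 7529 after auxin and 1242 and 1205 in wild-type cells. The wild-type libraries were thus far below the other 4, which overlapped after scaling. Its level was 452 ± 58.3 CPM in untreated and 85.8 ± 2.40 CPM in the wild type (SD, n = 2 each), a log2 fold change of −2.40 (SE 0.09). Cnn1, the calponin typical of differentiated smooth muscle, had 287 and 239 counts in the untreated, 339 and 322 in the auxin-treated and 44 and 52 in the wild-type libraries. It had the fewest counts of the 10 genes in wild-type cells, and the auxin-treated libraries lay above the untreated pair. From 18.2 ± 2.54 CPM in untreated cells it stood at 3.37 ± 0.375 CPM in the wild type (SD, n = 2 each), 5.43-fold lower on the fitted scale, a log2 fold change of −2.44 (SE 0.18), which lay within its SE of that of Tagln, and without wild-type replicate 1 the value of Tagln was the lower. Cnn2 codes for the calponin that is also made outside muscle. Its counts were 4469 and 3575 in the untreated, 4976 and 4897 in the auxin-treated and 1947 and 1764 in the wild-type libraries. Both wild-type libraries were below the rest, by a smaller step than for Cnn1, with 279 ± 46.6 CPM in untreated and 130.2 ± 9.93 CPM in the wild type (SD, n = 2 each). The log2 fold change was −1.11 (SE 0.10).

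Of the filament itself, Acta2 codes for smooth muscle alpha-actin, a main component of contractile fibres in smooth muscle and activated fibroblasts. It had 1949 and 1823 counts in the untreated, 2034 and 2159 in the auxin-treated and 691 and 627 in the wild-type libraries. The untreated and auxin-treated values overlapped after scaling, and the wild-type values were below all of them. Acta2 was at 131 ± 7.49 CPM in untreated and 46.2 ± 3.48 CPM in the wild type (SD, n = 2 each), with a log2 fold change of −1.51 (SE 0.08). Tpm1 and Tpm2 code for tropomyosins, the coiled coils that lie along the filament. Tpm1, second to Flna in counts among the 10 genes in every library, had 11750 and 9694 counts in the untreated, 12865 and 12044 in the auxin-treated and 3514 and 3503 in the wild-type libraries. The wild-type replicates were almost equal, and far below the other groups. Its level was 743 ± 108 CPM in untreated and 246 ± 2.16 CPM in the wild type (SD, n = 2 each), with a log2 fold change of −1.60 (SE 0.09). Tpm2 had 1571 and 1195 counts in the untreated, 1729 and 1702 in the auxin-treated and 537 and 664 in the wild-type libraries. The groups of degron cells overlapped after scaling, and the wild-type libraries were below them. With 95.9 ± 19.4 CPM in untreated and 42.1 ± 6.02 CPM in the wild type (SD, n = 2 each), its log2 fold change was −1.19 (SE 0.13). Myl9, the regulatory light chain of smooth muscle myosin II, had 169 and 138 counts in the untreated, 151 and 187 in the auxin-treated and 102 and 113 in the wild-type libraries. The steps between groups were small, although the wild-type libraries were still below both untreated ones. Myl9 was at 10.6 ± 1.63 CPM in untreated and 7.54 ± 0.496 CPM in the wild type (SD, n = 2 each), and its log2 fold change was −0.50 (SE 0.17).

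The other 3 genes act around the filament. Flna codes for filamin A, which crosslinks actin filaments and ties them to membrane receptors. Its counts were 14211 and 11329 in the untreated, 16066 and 15503 in the auxin-treated and 8594 and 8717 in the wild-type libraries. The auxin-treated libraries were above both untreated ones and the wild-type libraries below them. Flna was at 885 ± 150.1 CPM in untreated and 607 ± 2.11 CPM in the wild type (SD, n = 2 each), with a log2 fold change of −0.55 (SE 0.09). Vim codes for vimentin, the intermediate filament protein of mesenchymal cells. It had 7222 and 6666 counts in the untreated, 8365 and 8516 in the auxin-treated and 1978 and 1895 in the wild-type libraries. No group overlapped another, and the wild-type libraries stood far apart. The level of Vim was 481 ± 32.1 CPM in untreated and 136 ± 5.01 CPM in the wild type (SD, n = 2 each), with a log2 fold change of −1.83 (SE 0.07). Thbs1 codes for thrombospondin 1, a secreted matrix glycoprotein that can activate latent TGF-beta. Its counts were 4066 and 2978 in the untreated, 4064 and 4142 in the auxin-treated and 1879 and 1883 in the wild-type libraries. The untreated replicates differed more for Thbs1 than for any other of the 10 genes, and the wild-type libraries were below both. Thbs1 was at 244 ± 55.8 CPM in untreated and 132 ± 0.668 CPM in the wild type (SD, n = 2 each), with a log2 fold change of −0.90 (SE 0.12).

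For each of the 10 genes both wild-type libraries were below both untreated ones, and 40.5% of the 15778 genes tested in this comparison were as well. A log2 fold change below 0 was found for 50.6% of those genes. A log2 fold change under −1 was found for 7 of the 10 genes and for 11.4% of all genes tested, whose median was −0.01. Among all genes tested, ordered from the lowest log2 fold change, Cnn1 stood at percentile 2.13, Tagln at 2.23, Vim at 4.06, Flna at 22.4 and Myl9 at 24.0. The untreated and wild-type libraries differed widely in general, and 60.6% of all genes tested (29.9% higher and 30.7% lower) were called at an adjusted p-value under 0.05 in the quasi-likelihood test of edgeR, adjusted after Benjamini and Hochberg. Wild-type libraries were deposited in a separate table, so that the tag, the clone, doxycycline and the preparation of the libraries cannot be told apart here. With only untreated replicate 2 as the control, the replicate with the lower values, all 10 genes were still lower in wild-type cells, with a median of −1.21 and 5 genes under −1.

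**Figure D1:**
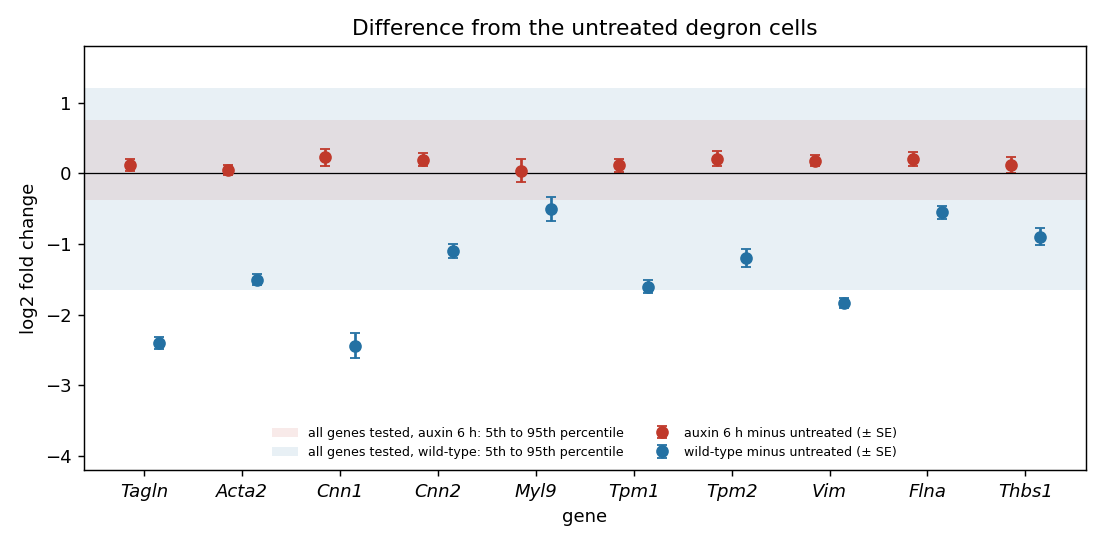
Log2 fold change (y axis) of each of the 10 genes (x axis) against the untreated degron cells, in red for auxin-treated and in blue for wild-type cells, as points with bars of 1 standard error from the edgeR fit (2 libraries per group). Shaded bands span the 5th to the 95th percentile of all genes tested. All red points lie between 0.04 and 0.23 and all blue points between −2.44 and −0.50.

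Levels of different genes were compared only after division by the length of their merged exons, as CPM per kilobase. Merged exons span all annotated transcripts of a gene, 21 for Tpm1 and 3 for Tagln, so the order between genes depends on the annotation. Before this division, Flna (885 CPM), Tpm1 (743 CPM) and Vim (481 CPM) had higher untreated means than Tagln (452 CPM), though the libraries of Vim and Tagln overlapped. In untreated cells Tagln was the highest, with 227 ± 29.3 CPM per kilobase (SD, n = 2), and its libraries lay above those of all the other genes. Tpm1, Cnn2, Vim and Flna followed at 115 ± 16.7, 113 ± 18.9, 101 ± 6.77 and 94.2 ± 16.0 CPM per kilobase (SD, n = 2), and each neighbour in this order overlapped the next. Acta2 came below them at 59.5 ± 3.41 CPM per kilobase, then Thbs1 at 40.2 ± 9.18 and Tpm2 at 33.0 ± 6.66, which overlapped each other (SD, n = 2). Myl9 and Cnn1 were the lowest, at 9.16 ± 1.40 and 6.66 ± 0.927 CPM per kilobase (SD, n = 2). The order after auxin was nearly that of the untreated cells, with Tagln at 242 ± 3.41 and Cnn1 at 7.68 ± 0.124 CPM per kilobase (SD, n = 2), and with Cnn2 now above Tpm1. In wild-type cells the order was different. Flna was the highest there at 64.6 ± 0.225, Cnn2 followed at 52.9 ± 4.04, and Tagln was the third at 43.2 ± 1.21 CPM per kilobase (SD, n = 2). Tpm1 was at 38.0 ± 0.333, Vim at 28.6 ± 1.06, and Thbs1 and Acta2 overlapped at 21.7 ± 0.110 and 21.1 ± 1.58 CPM per kilobase (SD, n = 2). Tpm2 was at 14.5 ± 2.07, Myl9 at 6.49 ± 0.427 and Cnn1 at 1.23 ± 0.137 CPM per kilobase (SD, n = 2).

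**Figure D2:**
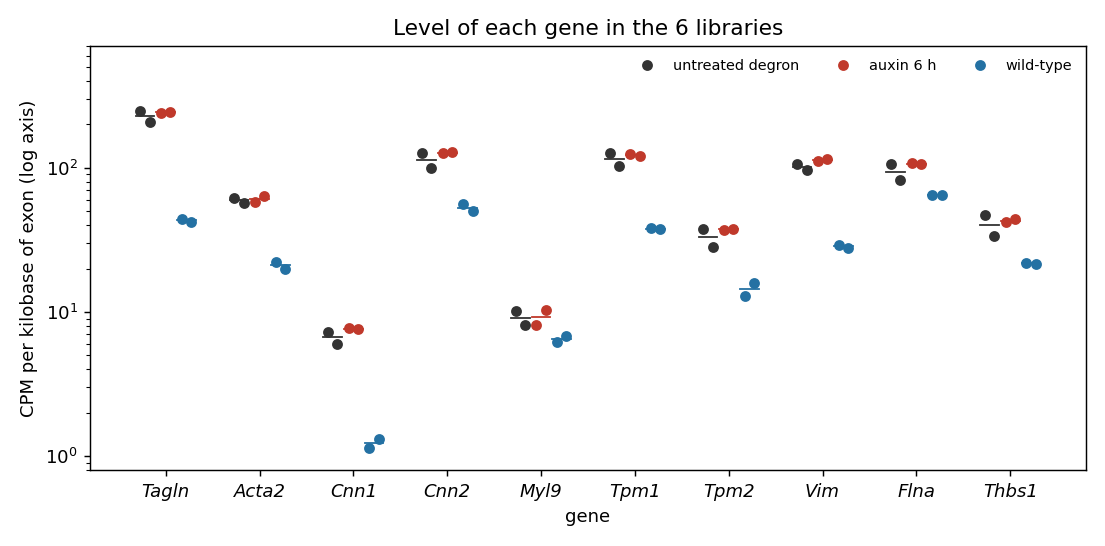
Level of each of the 10 genes (x axis) in CPM per kilobase of merged exons (y axis, log scale), with 1 point per library and a short line at the mean of each group (untreated in black, auxin-treated in red, wild-type in blue, 2 libraries each). Wild-type points lie below the untreated points of every gene, and Tagln goes from 227 in untreated to 43.2 in wild-type cells.

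The comparison of auxin-treated with untreated cells asks what 6 h without Pol II protein does to mature mRNA. These values share the untreated libraries with the comparison above, so that the 2 sets of fold changes are given side by side and were not set against each other. Of the calponin family, Cnn1 was at 21.0 ± 0.339 CPM (SD, n = 2) after auxin, with a log2 fold change of 0.23 (SE 0.12). Cnn2 was at 314 ± 2.81 CPM (SD, n = 2), with 0.19 (SE 0.09), and Tagln at 481 ± 6.77 CPM (SD, n = 2), with 0.11 (SE 0.09). The auxin-treated libraries were above both untreated ones for Cnn1 and Cnn2, whereas those of Tagln lay between the untreated replicates. Around the filament, Vim was at 537 ± 17.7 CPM (SD, n = 2), with a log2 fold change of 0.18 (SE 0.07). Flna was at 1004 ± 4.99 CPM (SD, n = 2), with 0.20 (SE 0.10). For both genes the auxin-treated libraries were above both untreated ones. Within the filament, Acta2 was at 133 ± 8.33 CPM (SD, n = 2), with a log2 fold change of 0.05 (SE 0.07), and Tpm1 at 792 ± 20.9 CPM (SD, n = 2), with 0.11 (SE 0.09). Tpm2 was at 109 ± 0.996 CPM (SD, n = 2), with 0.21 (SE 0.10). Myl9 was at 10.8 ± 1.84 CPM (SD, n = 2), with 0.04 (SE 0.17), and Thbs1 at 261 ± 8.80 CPM (SD, n = 2), with 0.12 (SE 0.11). The groups overlapped for these 5 genes and for Tagln.

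In all, 4 of the 10 genes had no overlap between the groups, with auxin-treated cells higher, on a background of 22.3% of the 16128 genes tested, and all 10 had a log2 fold change above 0, on a background of 49.9%. At an adjusted p-value under 0.05, edgeR called 4.2% of all genes tested after auxin, 2.56% higher and 1.64% lower. The size of these values depended on which untreated library served as the control. Without untreated replicate 1 the median of the 10 genes was 0.31 and all were above 0, and without untreated replicate 2 the median was −0.00, with 5 genes above 0 and 5 below. Leaving out auxin-treated replicate 1 or 2 gave medians of 0.19 and 0.14, and in the latter case 8 genes were above 0. Since TMM scaling centres on the typical gene, a rise or fall common to the whole transcriptome would be invisible here.

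The untreated replicates themselves differed over the 10 genes. Every one of them was higher in untreated replicate 1 than in replicate 2, on a background of 49.8% of the genes tested. These differences were between 0.12 and 0.47 on the log2 scale of CPM, with a median of 0.31. Over the 10695 genes with at least 100 counts in each untreated library the median was −0.01, and the 5th and 95th percentiles were −0.27 and 0.30. Between the auxin-treated replicates 3 of the 10 genes were higher in replicate 1 (median −0.02), and between the wild-type replicates 6 were (median 0.01). Summed over the 10 genes, the level was 3680 and 2999 CPM in the untreated, 3649 and 3679 in the auxin-treated and 1447 and 1426 in the wild-type libraries. Untreated replicate 2 thus stood below the other degron libraries and well above the wild-type ones. Other lists differed between these replicates as well. Of the known SRF and MRTF targets with at least 100 counts, 15 of 17 were higher in untreated replicate 1, with a median of 0.27. Of the pluripotency genes 1 of 12 was, with a median of −0.20, and of the feeder fibroblast markers 8 of 10 were, with a median of 0.06. Their part in the difference between the replicates was not tested.

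**Figure D3:**
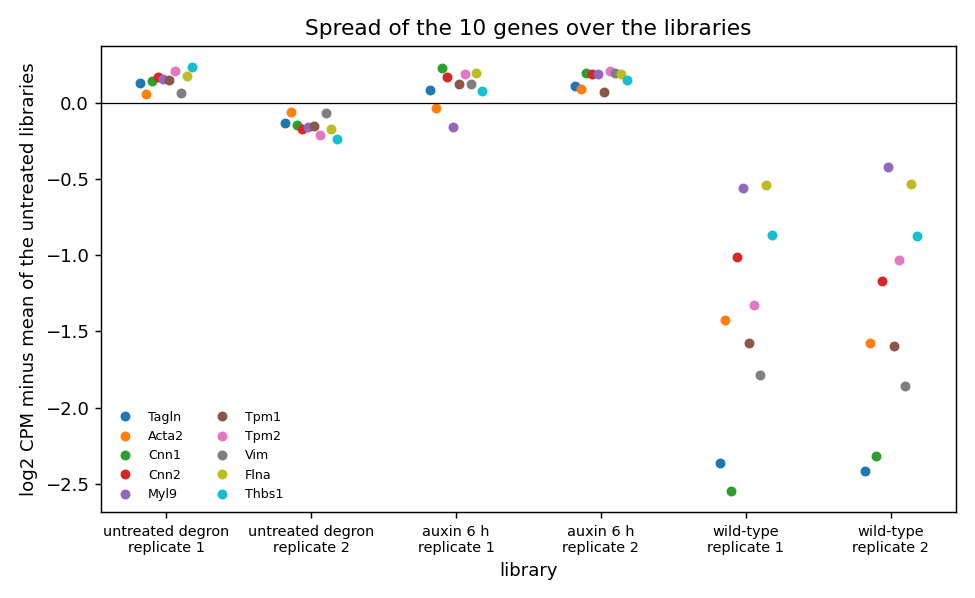
Log2 CPM of each of the 10 genes (colours) in each of the 6 libraries (x axis), given as the difference from the mean of both untreated libraries (y axis), with 1 point per gene and library. All 10 points of untreated replicate 1 lie above 0 and all 10 of untreated replicate 2 below it, and the wild-type points are the lowest for every gene.

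Close relatives of the 10 genes, with counts in the same libraries, differed among themselves. Actb, the cytoplasmic beta-actin of all cells, had 14178 and 12081 counts in the untreated, 14081 and 14147 in the auxin-treated and 27211 and 27200 in the wild-type libraries. It was higher in wild-type cells by 1.06 on the log2 scale (SE 0.08, edgeR's quasi-likelihood test, Benjamini-Hochberg adjusted p = 8.16e-07), the opposite direction to Acta2. The counts of Acta2 per count of Actb were 0.137 and 0.151 in the untreated, 0.144 and 0.153 in the auxin-treated and 0.0254 and 0.0231 in the wild-type libraries. Actg1, the other cytoplasmic actin, was higher in wild-type cells by 0.23 (edgeR adjusted p = 0.0161), a call that was lost without either wild-type replicate and with no low-count filter. Acta1, the skeletal muscle alpha-actin, had 1878 and 1256 counts in the untreated and 276 and 288 in the wild-type libraries, and fell by 2.46 on the log2 scale (SE 0.16, edgeR adjusted p = 2.68e-07). After auxin, of 5 other actins only Actc1, the heart muscle alpha-actin, was called, from 10 and 15 to 103 and 129 counts, with a log2 fold change of 3.10 (edgeR adjusted p = 0.000113).

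The counts of Tagln per count of its paralog Tagln2 were 1.71 and 1.53 in the untreated, 1.64 and 1.62 in the auxin-treated and 0.368 and 0.372 in the wild-type libraries. Vim relative to Des, the intermediate filament of muscle, had ratios of 10.5 and 9.69 in the untreated, 10.6 and 10.1 in the auxin-treated and 3.01 and 2.72 in the wild-type libraries. The difference between wild-type and untreated cells was therefore unequal within both pairs. Over 14 paralogs of the 10 genes, 2 were called higher and 8 lower in wild-type cells (5 lower without wild-type replicate 2), with a median log2 fold change of −0.28. Flnc, the muscle filamin (−1.57, edgeR adjusted p = 3.2e-07), Tpm4, a non-muscle tropomyosin (−1.20, edgeR adjusted p = 1.49e-06), Myl12a, a non-muscle myosin regulatory light chain (−0.65, edgeR adjusted p = 9.7e-06), and Cnn3, the third calponin (−0.29, edgeR adjusted p = 0.00164), were among the lower, and Cnn3 lost its call without either wild-type replicate. Myl12b, the neighbouring light chain gene of Myl12a, was higher (0.49, edgeR adjusted p = 4.3e-05). As a background, 29.9% of all genes tested were called higher and 30.7% lower in wild-type cells, and 4.2% were called after auxin. After auxin edgeR called 0 of the 13 paralogs tested at an adjusted p-value under 0.05, as did DESeq2, and 2 had an unadjusted p-value under 0.05.

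Other smooth muscle contractile genes were tested as a list of 12, of which 10 passed the filter on low counts in the wild-type comparison. Of all genes tested, 29.9% were called higher and 30.7% lower in wild-type cells, and 4.2% were called after auxin. In the list 1 was called higher and 5 lower in wild-type cells, with a median log2 fold change of −0.58. The lower ones included Pdlim7, which carries PDZ and LIM domains and binds the actin cytoskeleton (−1.47, edgeR adjusted p = 2.87e-07), Cald1, the actin-binding caldesmon (−1.21, edgeR adjusted p = 2.41e-06), Csrp1, a LIM protein of smooth muscle (−1.16, edgeR adjusted p = 6.3e-07), and Synpo2, which binds actin and filamin (−1.28, edgeR adjusted p = 0.000994). After auxin edgeR called 0 of 11 at an adjusted p-value under 0.05, as did DESeq2, and 2 had an unadjusted p-value under 0.05.

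The regulators of SRF and MRTF went both ways in wild-type cells, with 5 of 12 called higher (3 without wild-type replicate 1) and 4 lower. The background for each list in this paragraph was 29.9% of all genes tested called higher and 30.7% lower in wild-type cells. After auxin it was 2.56% higher and 1.64% lower. Srf had 1098 and 978 counts in the untreated, 1122 and 1187 in the auxin-treated and 1207 and 1202 in the wild-type libraries. Its adjusted p in the wild-type comparison was 0.024 from edgeR, higher in wild-type cells, a call that DESeq2 did not make and that 5 other alternatives lost. Diap1, the formin that nucleates actin filaments (0.76, edgeR adjusted p = 2.89e-06), and Rock1, a kinase that raises myosin activity (0.73, edgeR adjusted p = 2.09e-05), were higher in wild-type cells. Rhoc, a small GTPase (−0.89, edgeR adjusted p = 6.83e-06), and Fhl2, a LIM-only cofactor (−1.05, edgeR adjusted p = 0.000266), were lower. After auxin edgeR called 1 of 12, Rhob, a small GTPase with a short-lived mRNA, which rose by 0.60 (SE 0.08, edgeR adjusted p = 0.00179). Of 18 cytoskeletal targets of SRF and MRTF, 2 were called higher and 14 lower in wild-type cells, with a median log2 fold change of −0.44. Tgfb1i1, a focal adhesion LIM protein also called Hic-5 (−2.40, edgeR adjusted p = 6e-07), Zyx, the focal adhesion protein zyxin (−1.21, edgeR adjusted p = 5.41e-06), Amotl2, an angiomotin (−0.90, edgeR adjusted p = 8.6e-06), Myh9, the non-muscle myosin heavy chain (−0.43, edgeR adjusted p = 0.000592), and Cfl1, the filament-severing cofilin (−0.21, edgeR adjusted p = 0.00859, not called without either wild-type replicate), were lower. Lima1, which stabilizes actin filaments, went the other way (1.09, edgeR adjusted p = 1.14e-07). Lima1 was also the 1 target called after auxin, where it fell by 0.29 (edgeR adjusted p = 0.0342), a call that was lost with DESeq2 and without either auxin-treated replicate. Of 14 genes of TGF-beta signalling, 3 were called higher and 5 lower in wild-type cells (3 lower without wild-type replicate 2). Smad7 and Skil, inhibitors of the pathway, were higher (1.75, edgeR adjusted p = 6.48e-09, and 0.74, edgeR adjusted p = 5.46e-06), whereas the receptor Tgfbr2 (−1.48, edgeR adjusted p = 6.13e-06) and the ligand Tgfb2 (−1.28, edgeR adjusted p = 6.42e-05) were lower. After auxin 1 of 14 was called, Ltbp2, a matrix protein of the LTBP family (0.80, edgeR adjusted p = 0.0321), which was not called by DESeq2 or without either auxin-treated replicate.

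The counts after auxin also depended on the untreated control. Without untreated replicate 1, edgeR's calls after auxin changed for the targets of SRF and MRTF and their regulators. They also changed for the other smooth muscle contractile genes, the genes of TGF-beta signalling and the paralogs. Without untreated replicate 2, the calls changed for the targets. More of all genes tested were called in both fits, and a single library stood for the untreated cells. Whether these lists moved beyond that general rise in calls was not tested.

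**Figure D4:**
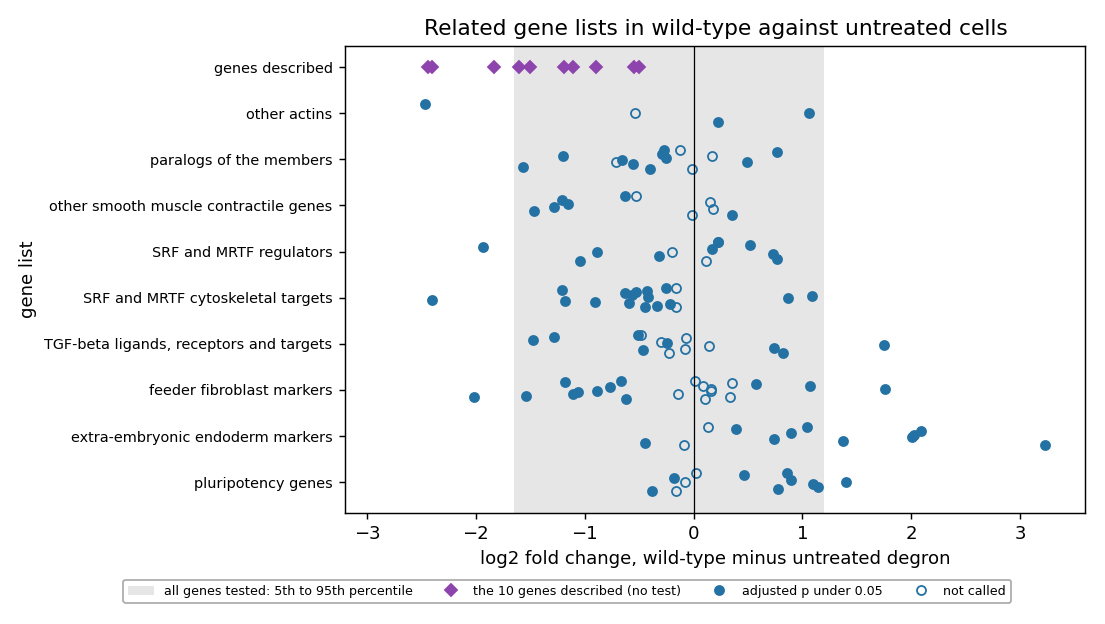
Log2 fold change of wild-type against untreated degron cells (x axis) for the 10 genes described and for 9 lists of related or marker genes (y axis), with 1 point per gene, filled where edgeR's adjusted p-value was under 0.05. Purple diamonds are the 10 genes, which carry no test, and the grey band spans the 5th to the 95th percentile of all genes tested. The targets of SRF and MRTF lie mostly below 0 and the pluripotency genes mostly above it.

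Markers of other cells were read beside these values, since feeder fibroblasts express many of the 10 genes. Dcn, Lum and Fap, fibroblast markers picked after their values were seen, had at most 4, 1 and 2 counts in any library. Other markers of the same list were well above this. Col1a1 had 941 and 938 counts in the untreated, 1166 and 1380 in the auxin-treated and 962 and 915 in the wild-type libraries. In untreated cells Col5a1, Col1a2 and Bgn were at 11.8 ± 1.20, 5.42 ± 0.220 and 3.37 ± 0.420 CPM per kilobase (SD, n = 2). Of the feeder fibroblast markers, 24 in all, 20 passed the filter in the wild-type comparison, with 3 called higher (1 with DESeq2, without untreated replicate 2 or without wild-type replicate 2), 9 lower and a median log2 fold change of −0.07. Col5a1 (−1.18, edgeR adjusted p = 4.77e-07), Fbn1 (−1.06, edgeR adjusted p = 7.56e-06) and Col1a2 (−0.66, edgeR adjusted p = 2.85e-05), which code for fibrillar matrix proteins, were lower, and the receptor Pdgfra was higher (1.76, edgeR adjusted p = 3.3e-05). Among all genes tested 29.9% were called higher and 30.7% lower in wild-type cells, and 2.56% were called higher after auxin. The summed level of the feeder fibroblast list was 406 and 381 CPM in the untreated, 459 and 510 in the auxin-treated and 279 and 282 in the wild-type libraries. After auxin 3 of its 21 tested genes were called higher, Col5a1 (0.40, edgeR adjusted p = 0.02), Col1a2 (0.36, edgeR adjusted p = 0.0224) and Bgn (0.45, edgeR adjusted p = 0.0376), of which DESeq2 called 1, and none of the 3 was called without auxin-treated replicate 2. The part of these cells in the values of the 10 genes was not tested.

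The 12 pluripotency genes summed to 4900 and 5600 CPM in the untreated, 3997 and 4261 in the auxin-treated and 8142 and 8049 in the wild-type libraries, and none of them was at 0. For every list in this paragraph the background was 29.9% of all genes tested called higher and 30.7% lower in wild-type cells. After auxin it was 2.56% higher and 1.64% lower. In wild-type cells 7 of the 12 were called higher and 2 lower (1 to 5 lower when single libraries were left out), among the higher Tdgf1 (1.14, edgeR adjusted p = 4.86e-08), Utf1 (1.10, edgeR adjusted p = 8.54e-08), Dppa5a (1.40, edgeR adjusted p = 2.96e-07) and Klf4 (0.89, edgeR adjusted p = 1.49e-06). Fgf4, Zfp42, Sox2 and Nanog were among the 6 called lower after auxin (−0.90, −0.65, −0.78 and −0.58, with edgeR adjusted p-values of at most 0.00092). The extra-embryonic endoderm markers, 12 in all, had 9 called higher and 1 lower in wild-type cells, with Srgn (3.23, edgeR adjusted p = 2.1e-06) and Lama1 (1.37, edgeR adjusted p = 3.96e-07) higher, and 0 called after auxin by edgeR or by DESeq2, with 4 of 11 at an unadjusted p-value under 0.05. Among the endothelial and mural markers, Mcam was higher (1.26, edgeR adjusted p = 7.79e-08) and Tie1 lower (−2.85, edgeR adjusted p = 3.91e-07) in wild-type cells. Of the 6 tested after auxin 0 were called by edgeR or DESeq2, and 0 had an unadjusted p-value under 0.05. Heart muscle genes had 5 called higher and 2 lower of 12 in wild-type cells. After auxin 6 of 14 were called higher (3 with DESeq2 or without auxin-treated replicate 2), with Myh6 from 73 counts in each untreated library to 244 and 286 (1.76, edgeR adjusted p = 9.81e-05) and Tnnt2 from 23 and 19 to 93 and 92 (2.03, edgeR adjusted p = 0.000995). The bearing of these markers on the 10 genes was not tested.

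Finally, the genes whose level followed that of Tagln most closely were sought among the 10968 genes that averaged at least 100 counts. Likeness was Pearson's r of log2(CPM + 1) over the 6 libraries, which share the step between the wild-type and the degron cells, and is a description with no p-value. The 10 most alike, the genes described here aside, were Ngfrap1, H1f0, Lgals1, Lzts2, Sqstm1, Atp6ap1, Slc4a2, Tpp1, Clgn and Prickle1, with r from 0.9998 to 0.9989. Sqstm1, which codes for the autophagy receptor p62, had 19296 and 16499 counts in the untreated, 20219 and 19342 in the auxin-treated and 3003 and 3077 in the wild-type libraries. Lgals1, which codes for galectin 1, had 6433 and 5257 counts in the untreated, 7126 and 6988 in the auxin-treated and 1178 and 1129 in the wild-type libraries. In both genes the wild-type libraries were far below the others, as for Tagln. An r above 0.95 was common, since 1867 genes (17.0%) had one. Among the other 9 genes described, Vim (0.9989), Tpm1 (0.9984), Acta2 (0.9976), Cnn1 (0.9970), Cnn2 (0.987), Tpm2 (0.976) and Thbs1 (0.9697) were above that value, and Flna (0.945) and Myl9 (0.875) were below it.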

How the data were processed

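The authors prepared polyA RNA-Seq libraries from 3 groups of cells, 2 per group, sequenced 150 bp paired reads, mapped these to mm10 by hisat2 2.1.0 and counted them per GENCODE gene with salmon and htseq-count. They deposited raw counts per gene, not normalized, with the wild-type libraries in a table of their own. The authors' own comparison columns (fold changes and p-values by DESeq2) and 2 columns of per-sample values labelled KO were not used. Symbols that had turned into dates (27) were restored by gene ID, and 37607 of the gene IDs were in vM21.

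Tests across genes used edgeR 4.0.16 under R 4.3.3 (glmQLFit, glmQLFTest, TMM scaling, filterByExpr with a minimum count of 10, Benjamini-Hochberg adjustment over all genes tested), each comparison on its own 4 libraries, and called at an adjusted p-value under 0.05. The edgeR test prints no SE, so the SE of each log2 fold change was taken as its absolute value divided by the square root of F. Levels in CPM are on 1 TMM scale over all 6 libraries, in place of the planned scale per comparison. All 10 genes described passed the filter in both comparisons. The 10 genes and the gene lists were chosen with earlier results of these data known. Other genes were named by a rule: per list and comparison the called genes with the smallest p (at most 4), the 2 most abundant, Polr2a, and the 10 genes most like Tagln. Some of these are not reported here. Srf, Myh11, Myocd, Actg2, Mylk, Smtn, Lmod1, Pcsk7, Dcn, Lum, Fap, Tagln2 and Des, given with counts or ratios, fall outside it and were chosen after their values were seen. Alternatives were DESeq2 1.42.0, its size factors, library totals, no filter, a prior count of 5 in place of 0.125, a replicate block, all 3 groups in one fit and each library left out. The procedure was tested on simulated data. The genes' promoters came from a RefSeq table of 250 bases before to 50 after each start. No protein sequence was used here.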

Additional observations from a re-analysis of the deposited data

How the results depend on the processing

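The 10 genes described stayed below 0 in wild-type against untreated cells under every alternative run for them, with medians from −1.21 to −1.48 when single libraries were left out and 5 to 8 genes under −1. After auxin the sign rested on the untreated control, as given above. The count of all genes called after auxin, 677, was not stable. It was 236 with DESeq2 and 55 with no low-count filter, but 1235 with all 3 groups in one fit. It lay between 179 (without auxin-treated replicate 2) and 2724 (without untreated replicate 1) when single libraries were left out, with 184 without auxin-treated replicate 1 and 1114 without untreated replicate 2. In such fits the lone library is assumed to vary like the other group. Replicates with the same number did not deviate together (r = 0.0670 in the auxin and −0.0283 in the wild-type comparison, with 2 pairs). A shared effect smaller than the spread between replicates would not show in these values. The labels give the replicates a number and no pairing. The replicate block, which gave 1930 genes after auxin, was therefore not read as a paired design. In wild-type against untreated cells 9555 genes were called, and the alternatives gave 7085 (DESeq2) to 9962 (all 3 groups in one fit), with 9689 under the replicate block and 7532 to 9570 when single libraries were left out. Of the values for the other named genes 523 kept direction and call, 36 lost the call and 1 gained it, and 0 reversed. The cause of these shifts was not tested. With 2 libraries per group, genes with few counts such as Cnn1 and Myl9 are known less well.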
